A study of Arabidopsis thaliana with 6 samples.

Results

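The genes described here are those that the chloroplast itself carries: 63 probe sets, each paired with a single gene of the plastid genome, among 17504 probe sets with a gene. They were chosen by their place on the plastid genome in the RefSeq gene table. Their measured values set no membership, though earlier results of these data were known when this group of genes was chosen. Each of the 63 stands for a different gene. Whole seedlings of Arabidopsis thaliana from the line 35S::PLT2-GR were measured in both groups. In this line the 35S promoter, which is active in most tissues, drives the transcription factor PLT2 fused to a glucocorticoid receptor domain, so that dexamethasone can bring the fusion into the nucleus. The dexamethasone group comprised 3 flasks given 10 µM of the steroid for 6 h, and the mock group 3 flasks given the solvent DMSO for the same 6 h. Seedlings were 4 days old when about 50 of them were placed in each flask of 50 ml liquid medium, and they stayed there overnight before treatment. Both groups carry the fusion, and no plants without it were given dexamethasone, so effects of the steroid and of the fusion cannot be told apart.

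The chloroplast genome of land plants keeps a small set of genes for photosynthesis and for its own expression. It encodes core subunits of both photosystems, the cytochrome b6f complex, the ATP synthase and the NDH complex, the large subunit of Rubisco, some ribosomal proteins and the core of a bacterial-type RNA polymerase. That polymerase, called PEP, reads most photosynthesis genes, while a phage-type polymerase encoded in the nucleus, called NEP, reads a few others, and many genes are transcribed together as operons. The other subunits of the same complexes are encoded in the nucleus, as are the PLETHORA factors, which act in root stem cells and embryos.

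Of 85 protein-coding entries of the plastid genome in the RefSeq table, which carry 78 distinct symbols, 63 had a probe set of their own. Another 19 probe sets were paired with several genes at once and are not counted among the 63. Most of these belong to the inverted repeat, a stretch that the plastid genome holds in 2 copies, and 12 of the 19 carried the same values as a twin probe set. None of the 37 tRNA genes and none of the 7 rRNA genes had a probe set of its own, so these kinds of gene are not analysed here.

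The label of whole seedlings was set against markers of green tissue and of root and root hair. Of 5 green tissue markers 2 were measured: RCA, for Rubisco activase, averaged a log2 value of 10.82 in dexamethasone and 11.14 in mock seedlings, and LHCB4.1, for an antenna protein, 9.95 and 10.18. Of 5 root and root hair markers 4 were measured, with dexamethasone means from 4.83 (EXPA18) to 9.87 (BGLU21) and mock means from 6.17 (EXPA18) to 10.19 (BGLU21). Values at or above the array medians of 5.44 to 5.53 were thus present for both organs in mock seedlings. In dexamethasone seedlings 3 of the 4 root and root hair markers fell, where 9.54% of all probe sets fell. BGLU21 did not pass (limma adjusted p 0.0689). Of the green tissue markers, RCA fell too (limma adjusted p 0.0475), and LHCB4.1 did not pass (limma adjusted p 0.12). The same 2 probe sets are counted again among the nuclear photosynthesis genes below. EXPA18 and EXPA7 averaged 4.83 and 4.98 in dexamethasone seedlings, under the array medians.

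No plastid genome gene rose and none fell. By limma with Benjamini-Hochberg adjustment over all 17504 probe sets, 0 of 63 passed an adjusted p of 0.05 in either direction, where 18.6% of all probe sets passed, 9.04% rising and 9.54% falling. The smallest adjusted p was 0.375, and 0 of 63 had an unadjusted p under 0.05, against 32.7% of all probe sets. The log2 changes, dexamethasone minus mock, ran from -0.13 to 0.17 with a median of -0.030 and quartiles of -0.063 and 0.007. Over all probe sets the median change was 0.022 and the quartiles were -0.185 and 0.222. The median size of a change, whatever its sign, was 0.038 for plastid genes and 0.205 for all probe sets. In RNA of whole seedlings, a change in the number of green cells and a change in plastid RNA per cell cannot be told apart.

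**Figure D1:**
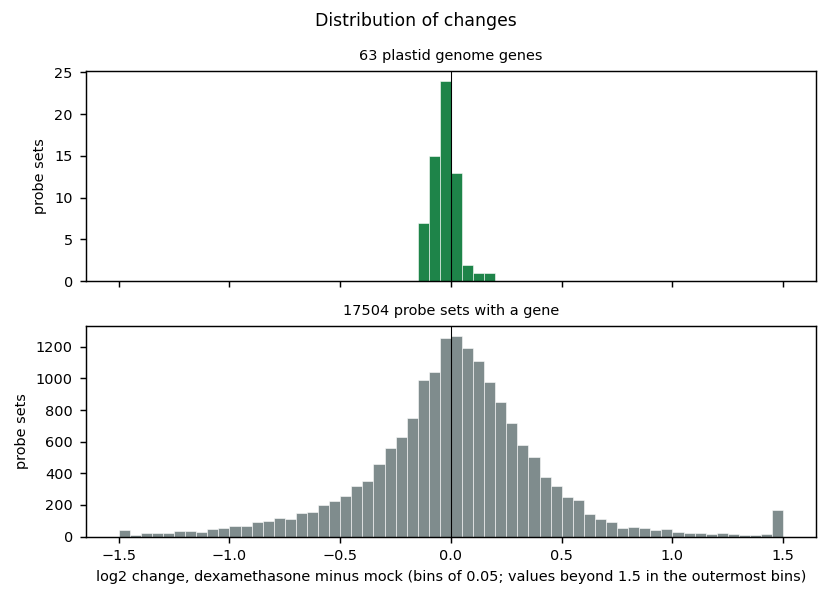
Number of probe sets by log2 change, dexamethasone minus mock, for the 63 plastid genome genes (upper panel) and all 17504 probe sets with a gene (lower panel). The plastid genes occupy a narrow band between -0.13 and 0.17, while quartiles of all probe sets are at -0.185 and 0.222.

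The intervals show how large a change each plastid gene could have had. The 95% interval of the difference lay within 0.5 on the log2 scale either way for 62 of 63 genes, within 0.4 for 59 and within 0.3 for 50. All 63 intervals held 0. For every gene but psbT the bounds correspond to at most 1.34-fold lower or 1.34-fold higher. The widest interval was that of psbT, from -0.38 to 0.72. These intervals hold for each gene singly and rest on the spread that limma shares over all probe sets. A p that misses the threshold does not show that the groups were alike, and the intervals give the sizes that remain possible.

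**Figure D2:**
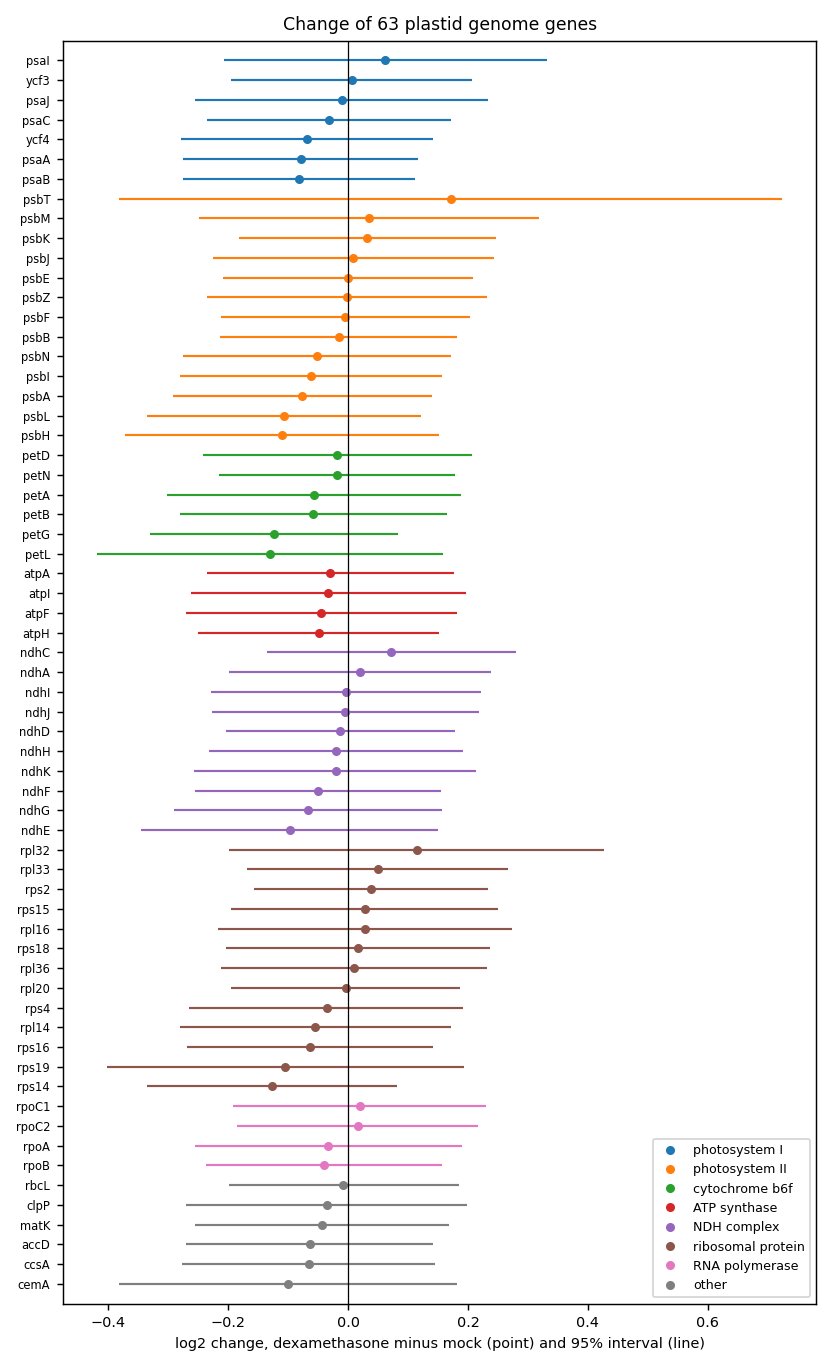
Log2 change, dexamethasone minus mock (points), with its 95% interval (lines) for each of the 63 plastid genome genes, coloured by functional class. Every line crosses 0, and psbT has the widest interval, from -0.38 to 0.72.

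All plastid probe sets but psbT lay near the upper end of the array scale, with means over the 6 arrays from 10.58 (petL) to 12.39 (rpl20), where the highest value of any probe set on any array was 13.09. Among 148 other probe sets at least as bright as petL, with plastid and matched mitochondrial genes left out, 8 passed the threshold, which is 5.41%, with 3 that rose and 5 that fell. Their changes ran from -0.46 to 0.42. The count of 0 of 63 is therefore to be read against 5.41% as well as against the 18.6% of all probe sets. For the unadjusted p and the median size of a change, the comparison was with all probe sets only. Whether such bright probe sets under-report a change was not tested.

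The dexamethasone array of replicate 3 stood apart for these genes. The median of the 63 values was 11.65, 11.60 and 11.46 in dexamethasone replicates 1, 2 and 3, against 11.61, 11.59 and 11.60 in the mock arrays. In dexamethasone replicate 3 all 63 genes were below their mock mean, by a median of -0.134, while 16 were below it in dexamethasone replicate 1 and 29 in replicate 2. It held the lowest of the 6 values for 58 genes. The gap between this array and the mean of the other 2 dexamethasone arrays was -0.16 for plastid genes, -0.16 for mitochondrial probe sets, -0.07 for the 148 other bright probe sets and 0.01 for all probe sets with a gene. Over all probe sets this array differed at both ends of the scale. Its 0.25 quantile was 3.02, against 2.78 to 2.88 on the other arrays, and its 0.99 quantile 10.78, against 10.82 to 10.87. The array weight from limma was the lowest, 0.671 against 0.859 to 1.34. Whether its low plastid values follow from this array-wide difference was not tested. With this array left out, the median change of the plastid genes was 0.023, with 41 genes above 0 and 22 below. With all 6 arrays 17 were above and 46 below, against 9305 and 8199 of all 17504 probe sets. The array was picked for its low values, so leaving it out was bound to raise most of the changes. Without dexamethasone replicate 1 instead, the median was -0.061. Genes on the same arrays are not independent, so these counts are descriptions only. Apart from median centring and the removal of dexamethasone replicate 3, the other 12 alternatives left 40 to 56 of the 63 genes below 0. The number was 56 when dexamethasone replicate 1 was left out and 55 with quantile normalization. Median centring adds the same amount to the change of every probe set, moving the median of all of them to 0.062, against 0.022 as deposited, and under it 25 plastid genes were below 0. Without dexamethasone replicate 3 none of the 63 passed, the smallest adjusted p was 0.147, and 2 of 63 had an unadjusted p under 0.05, against 29.9% of all probe sets.

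**Figure D3:**
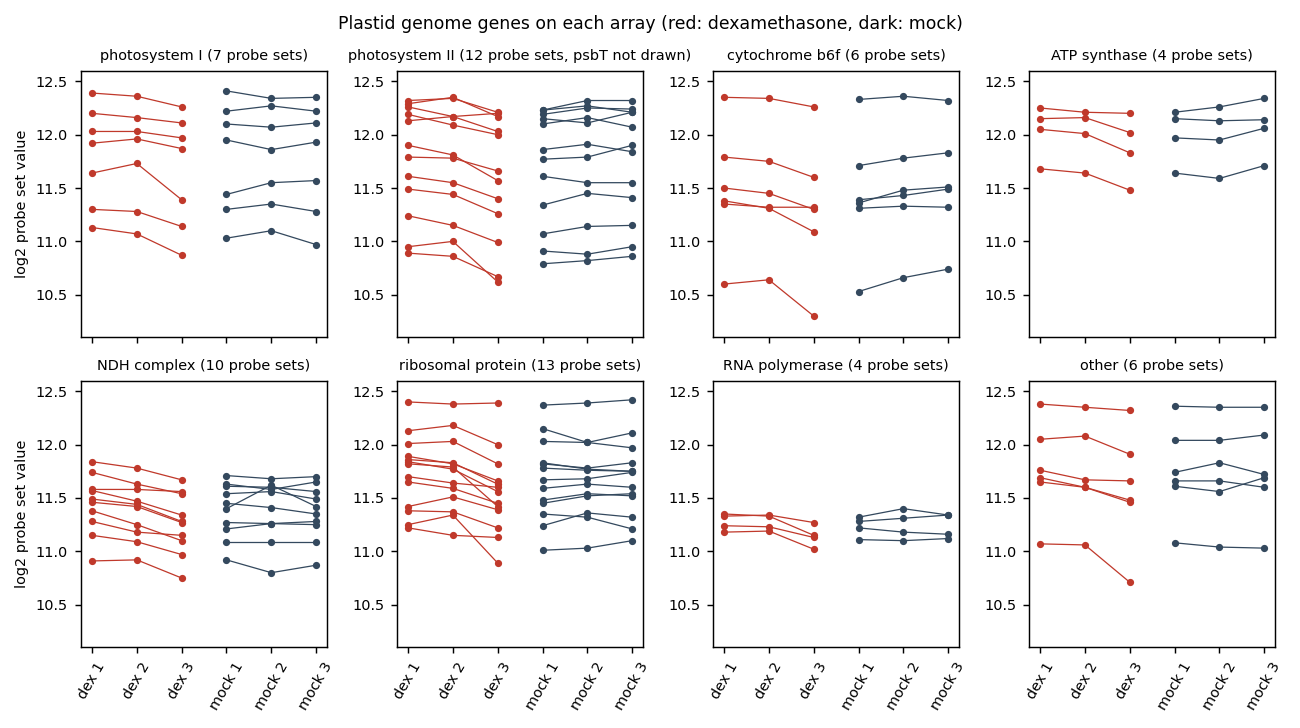
Log2 values of the plastid genome genes on each of the 3 dexamethasone arrays (red) and 3 mock arrays (dark), by functional class; each line joins the values of 1 probe set, and psbT, at 7.59 to 8.45, lies under the axis range. The lines keep nearly the same height in both groups, and most dip at dexamethasone replicate 3.

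Photosystem I takes electrons from plastocyanin to ferredoxin, and its core is built from the plastid-encoded psaA and psaB proteins, with psaC holding iron-sulfur clusters. Of 7 measured genes, which include the assembly factors ycf3 and ycf4, none passed the threshold, and the median change was -0.032 (range -0.082 to 0.062). That median was 0.003 without dexamethasone replicate 3 and -0.064 without dexamethasone replicate 1. The gene psaB had 12.03, 12.03 and 11.97 in dexamethasone seedlings, against 12.10, 12.07 and 12.11 in mock seedlings. Its groups did not overlap, yet the change of -0.08 (SE 0.08) had an adjusted p of 0.547. Its partner psaA had 12.20, 12.16 and 12.11 in dexamethasone seedlings, against 12.22, 12.27 and 12.22 in mock seedlings. All dexamethasone values of psaA were again below all mock values, by a small margin, at a change of -0.08 (adjusted p 0.566). The psaC gene averaged 12.34 in dexamethasone and 12.37 in mock seedlings (SD 0.064 and 0.038, n = 3 each).

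Photosystem II oxidises water, and psbA and psbD encode its reaction centre proteins D1 and D2. Among 13 measured genes none passed, the median change was -0.005, and 9 changes were below 0. With dexamethasone replicate 3 left out, the median was 0.036, and with dexamethasone replicate 1 left out it was -0.049. The psbA values were 11.79, 11.78 and 11.66 in dexamethasone seedlings, against 11.77, 11.79 and 11.90 in mock seedlings. These values overlapped, and the change was -0.08 with a 95% interval from -0.29 to 0.14. The gene psbF, for a small subunit of cytochrome b559, had 12.32, 12.34 and 12.21 in dexamethasone seedlings, against 12.23, 12.32 and 12.32 in mock seedlings. Its change was -0.005.

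The largest change of any plastid gene was that of psbT, which encodes a very small subunit of photosystem II. It had 8.45, 8.20 and 7.59 in dexamethasone seedlings, against 7.64, 7.95 and 8.13 in mock seedlings. The dexamethasone values thus enclose those of the mock arrays, with SDs of 0.445 in dexamethasone and 0.247 in mock, and the change of 0.17 (SE 0.23) had an adjusted p of 0.668. Without dexamethasone replicate 3 the change of psbT was 0.42 and its adjusted p 0.166, and without dexamethasone replicate 1 it was -0.014. The probe set shared by psbC and psbD was at -0.039 (adjusted p 0.825).

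The cytochrome b6f complex passes electrons from photosystem II to photosystem I. All 6 measured genes of this complex had a change below 0, none passed, and the median was -0.058. Without dexamethasone replicate 3 the median was 0.004, and without dexamethasone replicate 1 it was -0.106. The small subunit gene petL had 10.60, 10.64 and 10.30 in dexamethasone seedlings, against 10.53, 10.66 and 10.74 in mock seedlings. Its change of -0.13 (SE 0.12, adjusted p 0.52) is the lowest of all plastid genes, with the low value of dexamethasone replicate 3 apart from 5 overlapping ones. The neighbouring petG, also for a small subunit, had 11.35, 11.32 and 11.32 in dexamethasone seedlings, against 11.36, 11.48 and 11.51 in mock seedlings. Those groups did not overlap, and the change of -0.12 had an adjusted p of 0.382. The gene petN, for another small subunit, averaged 12.32 in dexamethasone and 12.34 in mock seedlings. For petA, which encodes cytochrome f, the change was -0.06 with an interval from -0.30 to 0.19.

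In the ATP synthase class 4 genes were measured, all with changes from -0.049 to -0.030. Their median was -0.039, with 0.015 without dexamethasone replicate 3 and -0.069 without dexamethasone replicate 1. The gene atpH, for the membrane ring subunit, had 12.25, 12.21 and 12.20 in dexamethasone seedlings, against 12.21, 12.26 and 12.34 in mock seedlings. The probe set shared by atpB and atpE, which encode the beta and epsilon subunits, had 12.04, 12.02 and 11.94 in dexamethasone seedlings, against 12.04, 12.02 and 12.04 in mock seedlings. Both sets of values overlapped between the groups.

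The NDH complex takes electrons from ferredoxin back to plastoquinone in cyclic electron flow. The median change was -0.017, with 0.040 without dexamethasone replicate 3 and -0.056 without dexamethasone replicate 1. Of 10 measured genes none passed, and 8 had changes below 0. The lowest was ndhE, with 11.46, 11.42 and 11.27 in dexamethasone seedlings, against 11.40, 11.62 and 11.42 in mock seedlings. The highest was ndhC, with 11.84, 11.78 and 11.67 in dexamethasone seedlings, against 11.71, 11.68 and 11.70 in mock seedlings. The changes of -0.10 and 0.07 had adjusted p-values of 0.577 and 0.63, and both genes had overlapping groups.

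The 13 genes for ribosomal proteins had a median change of 0.010, with 7 genes above 0 and 6 below. With all 6 arrays as deposited this was the only class median above 0 among the 8 classes. It was -0.023 with quantile normalization and ran from -0.022 to 0.060 with 1 array left out. Without dexamethasone replicate 3, every class median was above 0, and without dexamethasone replicate 1 every class median was below 0. The gene with the smallest p of all 63 was rps14, for a protein of the small ribosomal subunit. It had 11.22, 11.15 and 11.13 in dexamethasone seedlings, against 11.35, 11.32 and 11.21 in mock seedlings. The groups touched, since the highest dexamethasone value exceeded the lowest mock value, and the change of -0.13 (SE 0.09) had an adjusted p of 0.375. The gene rpl32, for a protein of the large subunit, had 11.25, 11.34 and 10.89 in dexamethasone seedlings, against 11.01, 11.03 and 11.10 in mock seedlings. Its change was 0.11 (adjusted p 0.608), and 0.25 without dexamethasone replicate 3 (adjusted p 0.147). The gene rpl20 had 12.40, 12.38 and 12.39 in dexamethasone seedlings, against 12.37, 12.39 and 12.42 in mock seedlings, a change of -0.004. The gene rps19, for a protein of the small subunit, had 11.82, 11.79 and 11.42 in dexamethasone seedlings, against 11.83, 11.77 and 11.75 in mock seedlings. The value of dexamethasone replicate 3 alone was low, and the change was -0.11 (adjusted p 0.622).

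The 4 genes of the plastid RNA polymerase core, rpoA, rpoB, rpoC1 and rpoC2, had changes of -0.03, -0.04, 0.02 and 0.02. The rpoB values were 11.33, 11.34 and 11.27 in dexamethasone seedlings, against 11.32, 11.40 and 11.34 in mock seedlings. Neither this gene nor the other 3 passed, with a smallest adjusted p of 0.79.

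Of the 6 remaining genes none passed, and all 6 had changes below 0 with a median of -0.054. Their median was 0.007 without dexamethasone replicate 3 and -0.093 without dexamethasone replicate 1. The gene rbcL, for the large subunit of Rubisco, had 12.38, 12.35 and 12.32 in dexamethasone seedlings, against 12.36, 12.35 and 12.35 in mock seedlings. The values overlapped and the change was -0.008 with a 95% interval from -0.20 to 0.18. For cemA, which encodes a protein of the chloroplast envelope, the values were 11.07, 11.06 and 10.71 in dexamethasone seedlings, against 11.08, 11.04 and 11.03 in mock seedlings. The value of dexamethasone replicate 3 alone lay apart, and the change was -0.10 with all arrays (adjusted p 0.619) and 0.017 without it. The gene accD, for a subunit of acetyl-CoA carboxylase in fatty acid synthesis, had a change of -0.06, clpP, for a protease subunit, -0.04, matK, for an intron maturase, -0.04, and ccsA, for a factor of cytochrome c assembly, -0.07.

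Across the 63 genes the groups did not overlap for 3, psaA, psaB and petG, all lower in dexamethasone seedlings. That is 4.76%, against 38.1% of all probe sets. The share among the 148 other bright probe sets was not determined. With an intensity trend in limma the median SE of these genes was 0.060, against 0.093 without it, and 2 of 63 had an unadjusted p under 0.05, against 34.6% of all probe sets. These were rps14 (adjusted p 0.137) and petG (adjusted p 0.139).

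Genes of the same operon were set side by side, since they share transcripts. The psaA operon, which joins psaA, psaB and rps14, had 3 changes below 0 (-0.079, -0.082 and -0.127), and these 3 are among the 7 genes with the smallest p. In the neighbouring petL, petG and psaJ the changes were -0.130, -0.124 and -0.011. Elsewhere the members of an operon lay on both sides of 0, as in the psbB operon, from -0.111 (psbH) to 0.171 (psbT), and in the operon of psaC and the NDH genes, from -0.097 (ndhE) to 0.028 (rps15). Operons with all measured genes on the same side were also seen, for example rpl33 and rps18 (0.049 and 0.016). None of the operon members passed the threshold.

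**Figure D4:**
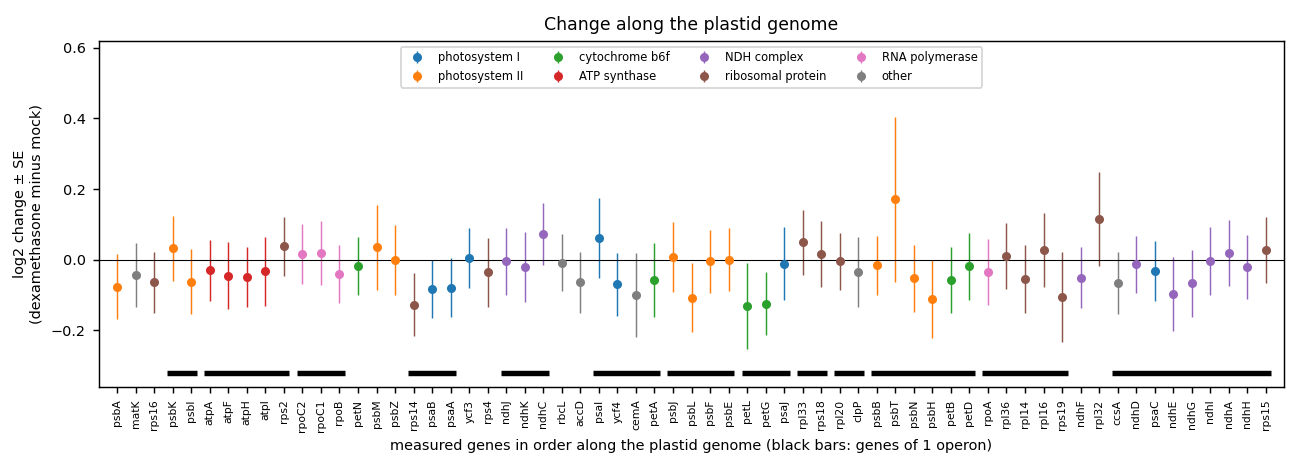
Log2 change, dexamethasone minus mock, with its SE (vertical lines) for the 63 measured genes in their order along the plastid genome. Black bars join genes listed under the same operon. The gene psbN, inside the psbB bar, is not part of that operon. The last bar starts with ccsA, whose place in that operon was not checked. The changes run from -0.13 (petL) to 0.17 (psbT). Probe sets shared by several genes are not drawn, nor are tRNA and rRNA genes.

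Genes that textbooks assign to the nuclear-encoded polymerase were set beside the rest. The 4 measured ones, accD, rpoB, rpoC1 and rpoC2, had a median change of -0.012 (range -0.064 to 0.019), and the other 59 had -0.030. None of either kind passed. For ycf2 and ycf1, also read by this polymerase, the probe sets are shared between repeat copies and had changes of -0.005 for ycf2 and 0.032 for the ycf1 row without a nuclear gene. The 19 probe sets with several genes had changes from -0.07 to 0.07, none passed, and their smallest adjusted p was 0.66.

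Nuclear genes of the same pathways were taken from 8 lists with 85 loci, of which 13 had a probe set of their own. In the photosynthesis lists, 11 of 51 loci were measured and 2 of the 11 fell, where 9.54% of all probe sets fell. None of the 11 rose, and their median change was -0.232, against 0.022 over all probe sets. Among the 148 other probe sets at least as bright as petL, 5 fell and the median change was 0.044. Several of the 11, RCA among them, are as bright as those, and LHCB4.2 is not. LHCB4.2, for an antenna protein of photosystem II, fell to 9.61, 9.14 and 9.40 in dexamethasone seedlings, against 10.08, 10.09 and 10.20 in mock seedlings. The groups were well apart, and the level was 1.67-fold lower (log2 change -0.74, SE 0.13, adjusted p 0.0109). RCA had 10.90, 10.82 and 10.75 in dexamethasone seedlings, against 11.11, 11.20 and 11.11 in mock seedlings, a change of -0.32. Its adjusted p of 0.0475 was just past the threshold and was 0.0701 to 0.139 with any 1 array left out.

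Changes of all 11 were below 0, where 8199 of all 17504 probe sets were. They remained so for all 11 without dexamethasone replicate 3, with a median of -0.220. Genes on the same arrays are not independent, so the count of 11 is a description only. LHCB4.3 among them was dim, averaging 3.79 in dexamethasone and 3.84 in mock seedlings, under the array medians. Its change was -0.047 (adjusted p 0.904), and its groups overlapped. The number below 0 was 10 when mock replicate 2 was left out, and 10 when dexamethasone replicate 1 was. Among those that did not pass, PSBY, for a small photosystem II protein, was at -0.35 (adjusted p 0.051), and PSAE-1, for a stromal photosystem I subunit, -0.30 (adjusted p 0.0933). AT2G26500, which encodes the b6f subunit PetM, had -0.27 (adjusted p 0.0581), and ATPC1, for the gamma subunit of the ATP synthase, -0.13 (adjusted p 0.47). The difference between nuclear and plastid genes of a complex was not tested, and the values stand side by side only.

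**Figure D5:**
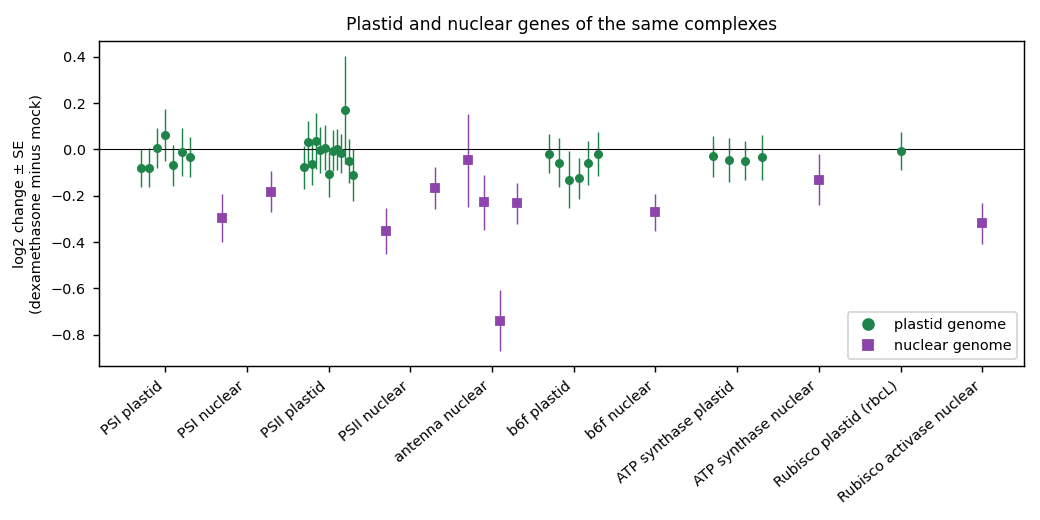
Log2 change, dexamethasone minus mock, with its SE, for plastid-encoded (circles) and nuclear-encoded (squares) photosynthesis genes, grouped by complex. RCA, for Rubisco activase, stands beside rbcL, since none of the listed nuclear Rubisco small subunits was measured. The plastid genes lie between -0.13 and 0.17, and the 11 nuclear genes between -0.74 (LHCB4.2) and -0.05 (LHCB4.3).

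Of the nuclear genes for plastid transcription, 1 of 8 was measured: AT5G15700, known as RPOTmp, for a phage-type polymerase of mitochondria and plastids. It rose to 7.20, 7.39 and 7.08 in dexamethasone seedlings, against 6.51, 6.82 and 6.50 in mock seedlings. The groups did not overlap, and the rise was 1.53-fold (log2 change 0.62, SE 0.13, adjusted p 0.0199). This call was lost without mock replicate 1 (adjusted p 0.0728), mock replicate 3 (0.065), dexamethasone replicate 1 (0.0533) or dexamethasone replicate 2 (0.0593). PORB, for a light-dependent enzyme of chlorophyll synthesis, was the 1 measured of 8 greening and plastid signalling genes, at a log2 change of 0.28 (adjusted p 0.0645). No member of the list of PEP-associated proteins (12 loci) or of plastid RNA stability (6 loci) was measured.

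Mitochondrial genome genes were set beside the plastid genes as the other organelle. They were matched by symbol, since their gene IDs did not match the RefSeq table, which gave 21 probe sets for 12 genes, 7 of them for nad1. None passed the threshold, where 18.6% of all probe sets did, and the smallest adjusted p was 0.0655. An unadjusted p under 0.05 was found for 5 of the 21, a smaller share than the 32.7% of all probe sets. Their median change was 0.066 (range -0.126 to 0.382), with 14 above 0 and 7 below. The largest change came from a dim nad1 probe set with 4.34, 4.47 and 3.81 in dexamethasone seedlings, against 3.83, 3.97 and 3.68 in mock seedlings. For cox2, a subunit of cytochrome c oxidase, the values were 9.07, 9.12 and 8.85 in dexamethasone seedlings, against 8.63, 8.81 and 8.51 in mock seedlings, which is 0.36 higher (adjusted p 0.0819). Probe sets of nad1 disagreed, with changes from -0.03 to 0.38.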

How the data were processed

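Total RNA from 6 seedling flasks was hybridised to 6 arrays, 1 per flask, which the labels call biological replicates. The authors deposited log2 values, a single value per probe set on each array. The submitters' processing notes name RMA and limma 3.24.15, with no role stated. The genome build, the primer used in labelling and the level of probe summarisation: not given in the sources used here. Precision is limited by the number of arrays. Of 38408 probe sets in the table, 17504 have a gene in the probe table of the platform. Gene IDs were joined to the RefSeq table of assembly TAIR10.1, which was used only for names and gene order.

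Dexamethasone was compared with mock by limma 3.58.1 (lmFit, then eBayes; R 4.3.3), two-sided, on the deposited log2 values of the 17504 probe sets. The SD covers the 3 arrays of a group, and the SE is limma's moderated standard error. Functional classes and operons follow gene symbols. The plastid genes and all lists were chosen with earlier results of these data known. The rule named any plastid gene past the threshold and, per class, the genes with the largest change and the highest mean, and for each nuclear list up to 3 genes past the threshold or the gene with the smallest p. All other genes named, and the matching of mitochondrial genes by symbol, were chosen with values in view. Alternatives were a replicate block, quantile normalization, median centring, removal of the dimmest 30% of probe sets, an intensity trend, array weights, a fit of all probe sets, an adjusted p of 0.01 and the removal of each array in turn. Deviations from the group means correlated at -0.00987, -0.0163 and 0.0305 between arrays of the same number, so the numbers were not taken as pairs.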

Additional observations from a re-analysis of the deposited data

How the results depend on the processing

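No plastid gene passed the threshold in either direction under any of the 14 alternatives, with a smallest adjusted p from 0.137 (intensity trend) to 0.557 (without mock replicate 2). With the replicate block, which is not borne out as a pairing, 0 of 63 plastid genes passed (smallest adjusted p 0.432). The median change of the plastid genes ran from -0.061 (without dexamethasone replicate 1) to 0.023 (without dexamethasone replicate 3); it was -0.056 with quantile normalization and 0.010 with median centring, which put the median of all probe sets at -0.024 and 0.062. The median of the 6 genes outside the complexes ran from -0.093 to 0.007 with 1 array left out, and that of genes of the nuclear-encoded polymerase was -0.050 with quantile normalization and 0.028 with median centring. Median centring moves every change up by the same amount, which alone lowers the number of plastid genes below 0 from 46 to 25. Among the genes named by the rule it puts above 0 petN (0.022), rbcL (0.032), psbF (0.035), rpl20 (0.035), psaC (0.007) and rpoB (3.7e-05). With array weights psbF was at 0.012. With 1 array left out, changes ran from -0.034 to 0.010 in petN, -0.024 to 0.007 in rbcL, -0.161 to 0.017 in cemA, -0.033 to 0.036 in psbF, -0.014 to 0.007 in rpl20, -0.014 to 0.417 in psbT and -0.057 to 0.003 in psaC. Of 13 nuclear partners 1 rose and 2 fell, where 9.04% and 9.54% of all probe sets did; 2 rose with the dim filter and with the intensity trend, 0 at an adjusted p of 0.01, and 0 to 1 with 1 array left out. The number that fell was 4 with quantile normalization and with the dim filter, 7 with the intensity trend, 1 with the replicate block, with median centring, with all probe sets and with any 1 array left out, and 0 at an adjusted p of 0.01. The calls over all probe sets moved too, from 3252 to 4348 with the intensity trend, 3996 with the dim filter and 3328 with quantile normalization. They were 2417 with the replicate block, 1724 to 2477 with 1 array left out and 1205 at an adjusted p of 0.01. In the fit of all 38408 probe sets 4870 passed. For fewer arrays, more or fewer probe sets tested and the stricter threshold the construction lowers or raises counts; otherwise the cause was not tested. Neither saturation nor signal over background was analysed here, which limits what these bright probe sets can show.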
